A study of Mus musculus with 16 samples.

Results

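Reg4, Reg3b and Reg3g were taken from the REG gene family, small secreted proteins with a C-type lectin fold, and described across mouse colon organoids that were or were not given tumour necrosis factor alpha (TNFa). They were 3 of 18850 genes named on the arrays, and were chosen by symbol. The brightest probe set by mean signal over the 16 arrays stood for each gene, but each of the 3 had 1 probe set, so that step left nothing to choose. Organoids are cultured balls of epithelium, and TNFa is a cytokine of intestinal inflammation. The arrays fell into 4 groups of 4: ATF2/7 fl organoids given TNFa, ATF2/7 fl organoids, wild-type (WT) organoids given TNFa, and WT organoids. The dose was 50 ng/ml for 12 h, and all groups grew in the same medium, named ENR in the labels. The ATF2/7 fl samples carry altered alleles of both Atf2 and Atf7, which encode related stress-responsive transcription factors. Their labels contradict each other: some give Atf2 as floxed and Atf7 as knocked out, others the reverse. No label names a Cre recombinase or says that the floxed allele was recombined. Whether samples 1 to 4 of a group are separate animals or cultures is not stated, so each p-value rests on a spread between samples that may be technical. Age, strain and sex of the animals are not given in the labels.

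REG proteins of the gut are secreted into mucus and the crypt lumen. Reg3b and Reg3g encode antimicrobial lectins that help keep bacteria away from the mouse intestinal surface, and Reg3g binds the peptidoglycan of Gram-positive bacteria. Both are raised in vivo by microbial signals and by interleukin 22, which acts through the transcription factor STAT3. Reg4 is a distant relative that marks the deep crypt secretory cells of the mouse colon, which sit among the stem cells at the crypt base and supply them with growth signals, and it is also found in enteroendocrine cells.

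The promoters of the 3 genes are shown because the signal of Reg4 differed between genotypes of Atf2 and Atf7, whose proteins bind the cyclic AMP response element (CRE), whereas the signals of the Reg3 genes were near background. The 250 bases before the annotated start of each gene were read from RefSeq's promoter table for build GRCm38.p6, which held all 3 genes. They lie at chr3:98221906-98222155 on the plus strand for Reg4, chr6:78370635-78370884 on the plus strand for Reg3b and chr6:78468875-78469124 on the minus strand for Reg3g. Capitals mark matches to any of 6 motifs described in the next paragraph.
Reg4: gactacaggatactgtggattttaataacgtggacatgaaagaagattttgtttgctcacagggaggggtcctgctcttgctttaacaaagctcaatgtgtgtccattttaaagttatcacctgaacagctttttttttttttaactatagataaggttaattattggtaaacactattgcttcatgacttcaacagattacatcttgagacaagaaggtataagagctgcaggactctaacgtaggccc
Reg3b: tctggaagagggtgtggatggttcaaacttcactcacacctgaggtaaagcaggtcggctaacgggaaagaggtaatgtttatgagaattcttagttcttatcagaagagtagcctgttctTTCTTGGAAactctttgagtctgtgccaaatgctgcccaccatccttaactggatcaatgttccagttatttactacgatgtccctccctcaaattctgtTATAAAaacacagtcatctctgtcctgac
Reg3g: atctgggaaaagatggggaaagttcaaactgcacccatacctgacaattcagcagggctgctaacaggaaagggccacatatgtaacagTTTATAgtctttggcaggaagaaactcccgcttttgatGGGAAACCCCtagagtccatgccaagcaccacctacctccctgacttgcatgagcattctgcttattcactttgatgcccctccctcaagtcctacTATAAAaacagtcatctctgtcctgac

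Both strands were searched for the CRE (TGACGTCA), the short CRE core (TGACG), AP-1 (TGANTCA), STAT (TTCNNNGAA), a loose NF-kB pattern (GGG and CC with any 5 bases between) and the TATA box (TATAAA). The short core lies within the CRE. These letters occurred in 1.55% (CRE), 17.8% (short CRE core), 6.75% (AP-1), 7.02% (STAT), 45.8% (NF-kB) and 12.4% (TATA box) of the 32851 promoters of the table, cut to the same length. Reg3b held a STAT match 129 to 121 bases before the start and a TATA box 29 to 24 bases before it. Reg3g held a TATA box 27 to 22 bases before the start, a further TATA match on the opposite strand 161 to 156 bases before it, and an NF-kB match on both strands 123 to 114 bases before it. The Reg4 window held none of the 6 motifs as spelled. After global alignment the promoters of Reg3b and Reg3g had the same base at 173 of 247 aligned positions (70%), against 58.8% for Reg4 and Reg3b and 57.5% for Reg4 and Reg3g. These matches describe the letters of the windows only.

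The samples were colon epithelium by their markers. All 9 epithelial markers, Epcam, Cdh1, Krt8, Krt20, Vil1, Cdx2, Car1, Slc26a3 and Lgr5, passed the signal filter, which asked for a signal above the array's own 40th percentile on at least 4 arrays. That percentile lay between 6.40 and 6.56 log2, and lower signals are called dim here. None of 4 endothelial markers passed, 1 of 7 immune markers passed (Lyz2, whose close copy Lyz1 is made by epithelium) and 2 of 6 fibroblast and smooth muscle markers passed (Col1a1 and Vim). The summed log2 signal of the immune list was 9.65 to 9.89 in ATF2/7 fl + TNFa, 9.47 to 9.67 in ATF2/7 fl, 9.12 to 9.30 in WT + TNFa and 9.30 to 9.57 in WT, with Lyz2 as its only bright gene, and the part of immune cells in the results was not tested. The pan-leukocyte marker Ptprc averaged 6.31 log2 in ATF2/7 fl + TNFa, 6.25 in ATF2/7 fl, 6.41 in WT + TNFa and 6.25 in WT. Array WT + TNFa 2 stood apart, correlating at 0.977 on average with its group's other arrays, whereas the remaining 15 arrays had 0.986 to 0.995. Atf2 did not differ detectably in untreated organoids, at 10.15 ± 0.03 log2 in ATF2/7 fl and 10.16 ± 0.14 in WT (SD, n = 4 each). No probe set used here carried the symbol Atf7, so Atf7 was not analysed. The exons behind the Atf2 signal are not stated, so this value does not check the alleles.

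Reg4 was bright and was the member that moved. Its mRNA was lower with TNFa in WT organoids, differed little with TNFa in ATF2/7 fl organoids, and was higher in ATF2/7 fl than in WT organoids with or without TNFa. On the log2 scale of the deposited signals, the 4 arrays of ATF2/7 fl + TNFa read 11.44, 11.36, 11.53 and 11.62, those of ATF2/7 fl 11.53, 11.54, 11.68 and 11.48, those of WT + TNFa 10.20, 10.25, 10.22 and 10.23, and those of WT 11.10, 11.07, 10.86 and 10.88. Both ATF2/7 fl groups lay above every WT array and overlapped each other, and the WT + TNFa arrays lay below all others. Group means were 11.49 ± 0.11 in ATF2/7 fl + TNFa, 11.56 ± 0.09 in ATF2/7 fl, 10.23 ± 0.02 in WT + TNFa and 10.98 ± 0.12 in WT (SD, n = 4 each). In order of level, ATF2/7 fl and ATF2/7 fl + TNFa did not differ beyond their spread, whereas WT and then WT + TNFa each lay lower without overlap. On every array the Reg4 signal was between the 92.0th and the 98.6th percentile of all probe sets. In bulk RNA, fewer Reg4-positive cells and less Reg4 RNA per cell cannot be told apart.

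**Figure D1:**
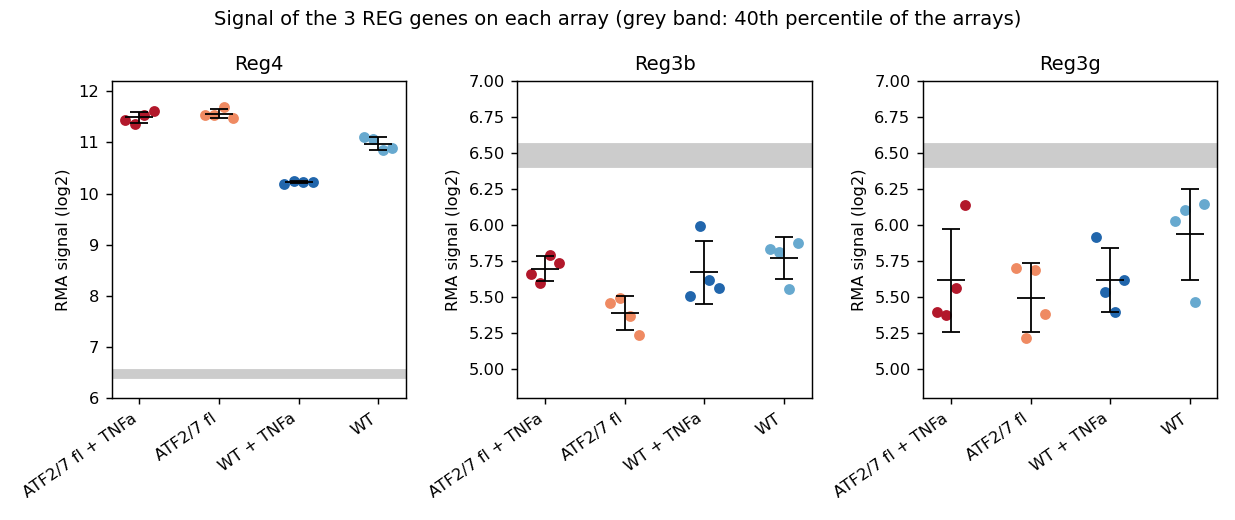
Deposited RMA signal (log2) of Reg4, Reg3b and Reg3g on each of the 16 arrays by group, with the group mean and SD as black bars. The grey band is the range of the arrays' 40th percentiles, 6.40 to 6.56. All Reg4 points lie far above the band, with WT + TNFa lowest, and all Reg3b and Reg3g points lie below it. The vertical scale of the Reg4 panel differs from that of the other panels.

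The question of the first comparison was how TNFa acts in organoids with unaltered Atf2 and Atf7. In WT organoids Reg4 fell 1.69-fold with TNFa, to 10.23 log2 in WT + TNFa, against 10.98 in WT (difference −0.75 log2, SE 0.07, 95% interval −0.90 to −0.60, limma adjusted p = 1.6e-06). Among 11766 genes tested, 5.75% were called as lower here, 5.03% as higher and 10.8% in either direction, and the groups did not overlap for 14.2% of genes. Reg4 had the 61st largest fall. Without WT + TNFa 2 the difference was −0.76 log2 (adjusted p = 4.8e-06). The pattern of Reg4 was known from earlier results of these data when the 3 genes were picked, so its p-values set a size against the array spread and are not independent evidence.

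In ATF2/7 fl organoids no TNFa effect on Reg4 passed the test. The signal averaged 11.49 log2 in ATF2/7 fl + TNFa and 11.56 in ATF2/7 fl, a difference of −0.07 log2 (SE 0.07, 95% interval −0.22 to 0.08, limma adjusted p = 0.763). At its lower end the 95% interval reaches a fall of 0.22 log2. In this comparison 2.47% of genes were called as lower, 3.51% as higher and 5.98% in either direction, and the groups did not overlap for 13.9%.

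The difference between the TNFa effects was tested directly, and Reg4 was the only gene of 11766 called (0.0085%). The TNFa effect in ATF2/7 fl minus that in WT was 0.69 log2 (SE 0.10, 95% interval 0.47 to 0.90, limma adjusted p = 0.0344), a 1.61-fold difference of ratios. At an unadjusted p under 0.05 the same test held 855 genes (7.27%), and by size Reg4 ranked 30th. The call is close to the threshold. It was lost when any 1 of 11 arrays was left out, with adjusted p of 0.0607 to 0.138: WT 1 and 2, WT + TNFa 1, 2 and 3, ATF2/7 fl + TNFa 1, 3 and 4, and ATF2/7 fl 1, 2 and 4. The size stayed between 0.64 and 0.73 log2 under every left-out array. With the title number as a block the adjusted p was 0.226, and with no signal filter it was 0.0564. In that fit to all 18850 genes 1 gene was called for this difference, and it was not Reg4.

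Between genotypes Reg4 rose in both conditions, which asks what the altered Atf2 and Atf7 alleles change before and during TNFa. Without TNFa it rose 1.49-fold, to 11.56 log2 in ATF2/7 fl, against 10.98 in WT (0.58 log2, SE 0.07, 95% interval 0.43 to 0.73, limma adjusted p = 1.1e-04). This was the 44th largest rise, where 1% of genes were called as higher, 1.48% as lower and 2.48% in either direction, and the groups did not overlap for 9.34%. With TNFa it rose 2.40-fold, to 11.49 log2 in ATF2/7 fl + TNFa, against 10.23 in WT + TNFa (1.26 log2, SE 0.07, 95% interval 1.12 to 1.41, limma adjusted p = 2.6e-08). This was the smallest p of all 11766 genes and the 11th largest rise, where 1.56% were called as higher, 1.13% as lower and 2.69% in either direction, and the groups did not overlap for 8.89%. Without WT + TNFa 2 the rise with TNFa was 1.27 log2 (adjusted p = 2.0e-07).

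**Figure D2:**
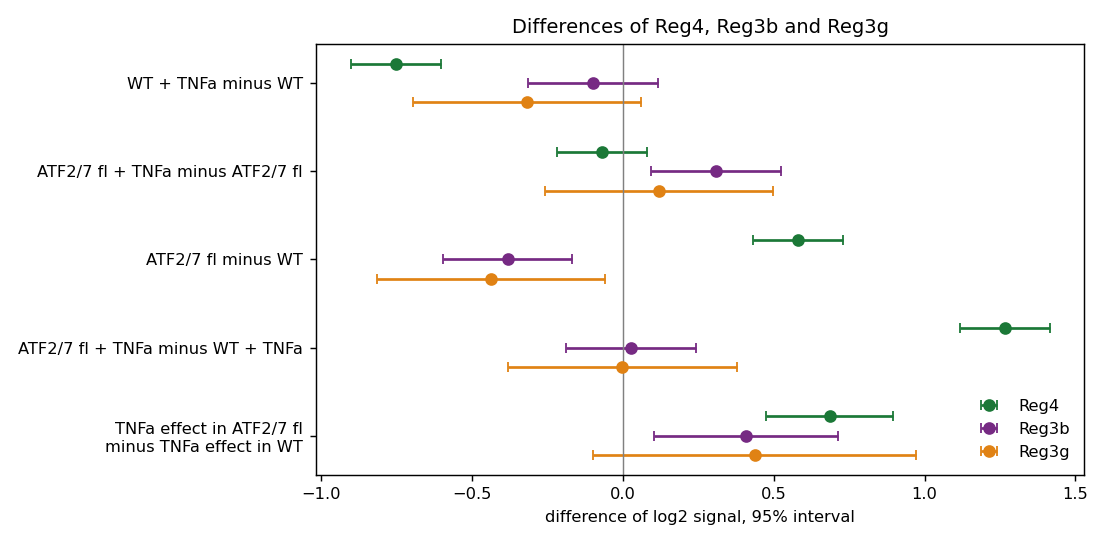
Differences of log2 signal for Reg4, Reg3b and Reg3g in the 5 comparisons, with 95% intervals from the limma fit (horizontal axis, log2). Reg4 lies furthest from 0 with TNFa between genotypes (1.26), and its interval for TNFa in ATF2/7 fl (−0.22 to 0.08) holds 0. The values of Reg3b and Reg3g come from the fit to all genes without the signal filter.

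Reg3b, an antimicrobial lectin gene, was dim on all 16 arrays, between the 20.4th and the 30.5th percentile of its array. It read 5.66, 5.60, 5.80 and 5.74 log2 in ATF2/7 fl + TNFa, 5.46, 5.50, 5.37 and 5.24 in ATF2/7 fl, 5.51, 5.995, 5.62 and 5.56 in WT + TNFa, and 5.84, 5.82, 5.56 and 5.88 in WT. The untreated ATF2/7 fl arrays lay below those of the 3 other groups, which overlapped one another. At this level the arrays do not show that the gene was expressed, and differences are approximate. It was not tested with the signal filter. In a fit to all 18850 genes the difference was −0.38 log2 between ATF2/7 fl and WT (SE 0.10, limma adjusted p = 0.0936) and 0.31 log2 between ATF2/7 fl + TNFa and ATF2/7 fl (adjusted p = 0.157), and neither passed. Neither pair of groups overlapped, as for 7.31% of all 18850 genes between the untreated genotypes and 9.92% with TNFa in ATF2/7 fl (10.1% with TNFa in WT and 6.9% between genotypes with TNFa). Within WT, TNFa gave −0.10 log2 (adjusted p = 0.693).

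Reg3g, the peptidoglycan-binding lectin gene, was also dim on all 16 arrays, between the 20.3rd and the 35.1st percentile. It read 5.40, 5.38, 5.57 and 6.14 log2 in ATF2/7 fl + TNFa, 5.71, 5.22, 5.69 and 5.39 in ATF2/7 fl, 5.92, 5.54, 5.40 and 5.62 in WT + TNFa, and 6.03, 6.10, 5.47 and 6.15 in WT. The groups overlapped in all 4 comparisons between groups. In the fit to all genes the difference with TNFa was −0.32 log2 in WT (SE 0.18, 95% interval −0.69 to 0.06, limma adjusted p = 0.404) and 0.12 log2 in ATF2/7 fl (95% interval −0.26 to 0.50, adjusted p = 0.936). Between genotypes it was −0.44 log2 without TNFa (adjusted p = 0.382) and −0.00 with it (adjusted p = 0.999).

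Over both Reg3 genes and the 5 comparisons, limma called 0 of 10 differences, and 4 of them had an unadjusted p under 0.05. The 5 comparisons reuse the same 4 group means, so the 4 are not independent and are not read as a result. At that unadjusted threshold the share of genes was taken only for the difference of the TNFa effects, among tested genes (7.27%). The shares that follow are for adjusted p. Without the filter 5.11% of genes were called for TNFa in WT, 2.96% for TNFa in ATF2/7 fl, 1.25% and 1.28% between genotypes without and with TNFa, and 0.00531% for the difference of the TNFa effects. Reg3b and Reg3g are similar genes, and whether their probe sets share probes was not examined.

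The other REG genes on the arrays, Reg1, Reg2, Reg3a and Reg3d, were dimmer still. Their means over the 16 arrays were 3.87, 4.94, 4.09 and 5.14 log2, and none passed the filter. In the fit to all genes 0 of 20 differences were called by limma (5 at an unadjusted p under 0.05), with sizes between −0.47 and 0.30 log2. These differences also reuse the same group means, so the 5 are not read as a result. Of the 7 REG genes measured, Reg4 alone exceeded the dim range, and it did so on all 16 arrays.

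Of 10 tested genes of the interleukin 22 and interleukin 6 receptor and STAT3 list, 1 rose and 0 fell with TNFa in WT and again in ATF2/7 fl, with medians of −0.02 and 0.06 log2, against 0.01 over all genes in both. These counts are close to the share called over all genes with TNFa in WT (10.8%) and in ATF2/7 fl (5.98%). The gene that rose was Il6st, which encodes the shared receptor chain gp130, by 1.62-fold in WT (limma adjusted p = 7.8e-06) and 1.70-fold in ATF2/7 fl (adjusted p = 2.9e-06). In this list 0 genes were called between genotypes, where 2.48% of all genes were called without TNFa and 2.69% with it. Of the proposed REG receptors, Extl3 had 8.42 log2 in ATF2/7 fl + TNFa, 8.21 in ATF2/7 fl, 8.36 in WT + TNFa and 8.25 in WT, and neither it nor Egfr, the growth factor receptor, was called in any of the 5 comparisons (both genes tested). Without WT + TNFa 2, 1 of these 2 genes rose with TNFa in ATF2/7 fl.

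Other genes known to respond to interleukin 22 or STAT3 moved in both directions with TNFa. In WT, 4 of 13 tested rose and 4 fell (median 0.08 log2), and in ATF2/7 fl 3 rose and 1 fell (median 0.24). The shares of all genes called with TNFa were 10.8% in WT and 5.98% in ATF2/7 fl. The nitric oxide synthase gene Nos2 rose in both genotypes and averaged 10.08 log2 in ATF2/7 fl + TNFa, 5.84 in ATF2/7 fl, 10.07 in WT + TNFa and 6.40 in WT. Its untreated signals were dim, so no fold is given. The oxidase maturation factor gene Duoxa2 rose 3.29-fold in WT and 3.46-fold in ATF2/7 fl. The fucosyltransferase gene Fut2 fell 1.39-fold in WT (adjusted p = 5.1e-04). Between genotypes without TNFa 2.48% of all genes were called, and in this list 0 rose and 3 fell. The 3 included the metalloreductase gene Steap4 (2.39-fold fall, limma adjusted p = 4.8e-06). TNFa acted in both genotypes by its direct targets: 8 of 9 check genes rose in each, led by the chemokine gene Ccl20 at 17.7-fold in WT and 19.0-fold in ATF2/7 fl.

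Other secreted antimicrobial and lectin genes were called between genotypes under TNFa, as Reg4 was. In that comparison 1.56% of all genes were called as higher and 1.13% as lower. Of 11 tested genes of this list, 5 rose and 0 fell in ATF2/7 fl + TNFa against WT + TNFa (median 0.39 log2, against −0.00 over all genes). They were Lyz1 and Lyz2, similar lysozyme genes whose probe sets may share probes (2.42-fold and 2.38-fold), the intelectin gene Itln1 (1.96-fold), the pentraxin gene Mptx1 (1.52-fold) and the angiogenin gene Ang4 (1.44-fold). Without WT + TNFa 2 it was 4 of 11. Lyz1 had 9.87 log2 in ATF2/7 fl + TNFa, 9.48 in ATF2/7 fl, 8.59 in WT + TNFa and 9.33 in WT. Its fall with TNFa in WT was 1.67-fold (adjusted p = 0.0252), and the difference of its TNFa effects was 1.13 log2 but not called (SE 0.29, adjusted p = 0.332). Within WT, TNFa gave 2 rises and 2 falls in this list, and 0 falls without WT + TNFa 2. In ATF2/7 fl it gave 3 rises and 0 falls (median 0.30 log2), beside −0.07 log2 for Reg4. Among all tested genes, 10.8% were called with TNFa in WT and 5.98% in ATF2/7 fl. Between the untreated genotypes, where 2.48% of all genes were called, 1 gene of this list rose and 2 fell (median 0.10 log2). Reg4 rose there by 0.58 log2, and the list ran from −0.61 (Pla2g2a) to 0.80 (Itln1).

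Markers of the cell types that hold Reg4 moved less than Reg4 in the goblet lineage, except with TNFa in ATF2/7 fl. With TNFa in WT, 5.03% of all genes were called as higher and 5.75% as lower. Of 19 tested deep crypt secretory and goblet markers, 0 rose and 3 fell there (median −0.11 log2), or 5 fell without WT + TNFa 2. These were Kit, a receptor that marks deep crypt secretory cells, with a 1.38-fold fall (adjusted p = 0.00699), the calpain gene Capn9 (1.27-fold) and the mucin gene Muc2 (1.19-fold). The 19 differences ran from −0.46 to 0.16 log2, beside −0.75 for Reg4. In ATF2/7 fl 0 of 19 were called with TNFa, and between genotypes 0 of 19 were called without or with TNFa. Over all genes the shares called were 5.98%, 2.48% and 2.69% in that order, so 0 of 19 is close to them. With TNFa in ATF2/7 fl the 19 differences ran from −0.21 to 0.29 log2, beside −0.07 for Reg4. Between genotypes the differences ran from −0.22 to 0.22 log2 without TNFa and from −0.12 to 0.37 with it, beside 0.58 and 1.26 for Reg4. Without WT + TNFa 2, 1 of 19 rose with TNFa in ATF2/7 fl and 1 between genotypes with TNFa. The log2 of the summed signal of the 20 markers on the array was 14.89 to 14.92 in ATF2/7 fl + TNFa, 14.92 to 14.96 in ATF2/7 fl, 14.84 to 14.92 in WT + TNFa and 14.99 to 15.03 in WT. The part of this cell lineage in the Reg4 differences was not tested.

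Enteroendocrine cells are the other lineage that holds Reg4. Of 14 tested markers, 7 rose and 1 fell in ATF2/7 fl + TNFa against WT + TNFa (median 0.29 log2), where 2.69% of all genes were called. Between the untreated genotypes 1 rose and 1 fell (median 0.09 log2), where 2.48% of all genes were called. The difference of the TNFa effects was called for 0 of the 14 (median 0.30 log2). The risen genes included the glucagon gene Gcg (2.09-fold, adjusted p = 3.7e-05), the granin gene Scg2 (1.78-fold, adjusted p = 9.0e-05) and the serotonin synthesis gene Tph1 (1.75-fold), and the prohormone processing gene Cpe fell 1.42-fold. With TNFa 2 rose and 3 fell in WT, and 3 rose and 0 fell in ATF2/7 fl (1 fell without WT + TNFa 2). The shares called over all genes were 10.8% with TNFa in WT and 5.98% in ATF2/7 fl. The log2 of the summed signal of 16 markers was 13.39 to 13.61 in ATF2/7 fl + TNFa, 13.31 to 13.46 in ATF2/7 fl, 13.30 to 13.43 in WT + TNFa and 13.34 to 13.42 in WT. Of 7 tested Paneth cell markers, 4 of which stand in the antimicrobial list too, 6 rose and 0 fell between genotypes with TNFa (median 0.74 log2), or 4 without WT + TNFa 2, among them the alpha-defensin gene Defa17 (4.00-fold). Their summed signal was 12.55 to 12.81 in ATF2/7 fl + TNFa, 11.71 to 12.01 in ATF2/7 fl, 11.85 to 12.14 in WT + TNFa and 11.38 to 11.91 in WT. Whether the colon organoids held Paneth cells was not examined. The part of the cell types named by these 2 lists in the Reg4 differences was not tested.

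**Figure D3:**
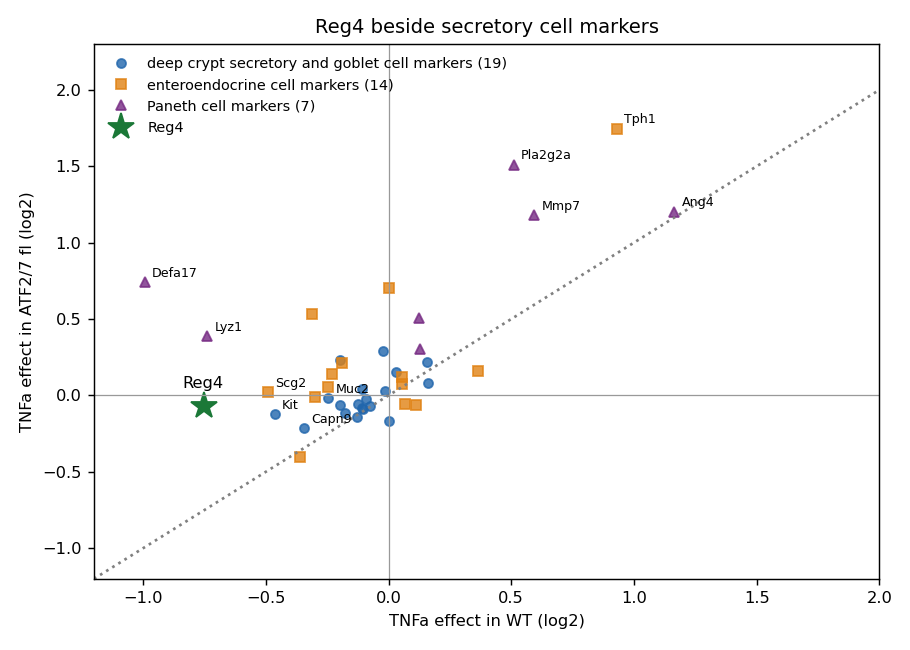
TNFa effect in ATF2/7 fl (vertical axis, log2) against TNFa effect in WT (horizontal axis, log2) for Reg4 and the tested genes of 3 secretory marker lists. Each point is 1 gene, with the number of genes in the legend. Whether the colon organoids held Paneth cells was not examined. Itln1, Ang4, Lyz1 and Pla2g2a are drawn as Paneth markers. The dotted line marks equal effects. Reg4 (−0.75 in WT, −0.07 in ATF2/7 fl) lies left of all 19 deep crypt secretory and goblet markers and all 14 enteroendocrine markers, whereas the Paneth marker Defa17 lies further left (−0.99).

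The 5 tested genes whose log2 signal was most like that of Reg4 over the 16 arrays were Scg2 (Pearson r = 0.94), the transcription factor gene Grhl3 (0.93), the fucosyltransferase gene Fut9 (0.92), Fxyd4, which encodes a regulator of the sodium pump (0.91), and the adenylyl cyclase gene Adcy8 (0.90). These values describe the same 16 arrays, in which the groups themselves differ. Within groups, after the group means were taken off, r was 0.31, 0.55, 0.03, 0.19 and 0.01 in the same order. Because they were picked for following Reg4 over these arrays, their shared group pattern is set by that choice. Adcy8 was dim in both WT groups, at 5.05 log2 in WT + TNFa and 5.70 in WT, beside 6.49 in ATF2/7 fl + TNFa and 6.94 in ATF2/7 fl. Scg2 was nearest to Reg4 in its TNFa effects, with 0.02 log2 in ATF2/7 fl and −0.49 in WT, whereas Fxyd4 had −0.88 in ATF2/7 fl and −1.09 in WT. For the dim Reg3b the most similar genes were Erg28 (0.88), Stk40 (0.83), Cmtr1 (0.81), Slc39a11 (0.80) and Pex26 (0.80). For the dim Reg3g they were Stim1 (0.78), Trappc11 (0.76), Sypl (0.76), Rhoq (0.75) and Mrpl24 (0.74).

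**Figure D4:**
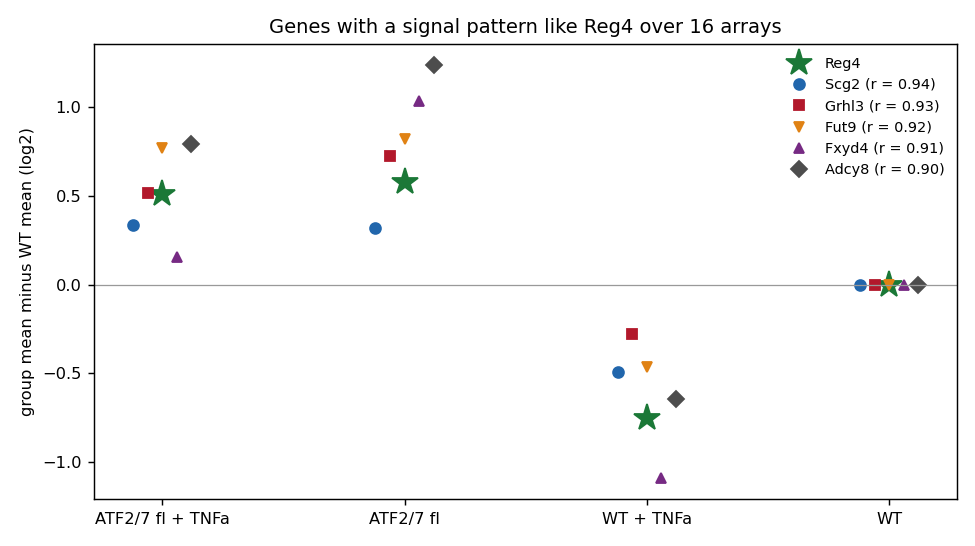
Group mean minus WT mean (vertical axis, log2) of Reg4 and the 5 genes most like it, in the 4 groups, with Pearson r over 16 arrays in the legend. The 5 genes were chosen for their likeness to Reg4, so the similar course of the points is set by that choice. The WT and WT + TNFa means of Adcy8 are dim.

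None of the measured genes beside Reg4 on chromosome 3 was called as higher between genotypes with TNFa. Of the 4 nearest named genes on each side, a set chosen after values were seen, 4 passed the signal filter: Sec22b, Notch2, Phgdh and Hsd3b2. Between genotypes with TNFa, where 2.69% of all genes were called, 1 of the 4 was called. It was Hsd3b2, a steroid dehydrogenase gene, which fell by 0.64 log2 (limma adjusted p = 0.00344). Hsd3b2 was also lower between the untreated genotypes (−0.77 log2, adjusted p = 5.7e-04), where Reg4 was higher. With TNFa it was lower in WT (−0.54 log2, adjusted p = 0.00388), as Reg4 was, and in ATF2/7 fl (−0.41 log2, adjusted p = 0.0377). Notch2, a receptor of the Notch pathway, had 7.14 log2 in ATF2/7 fl + TNFa and 6.83 in WT + TNFa (0.30 log2, adjusted p = 0.224). Phgdh, a serine synthesis enzyme gene, differed by −0.18 log2 (adjusted p = 0.559) and Sec22b, a vesicle trafficking gene, by −0.09 (adjusted p = 0.653). The difference of the TNFa effects was called for 0 of these 4.

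**Figure D5:**
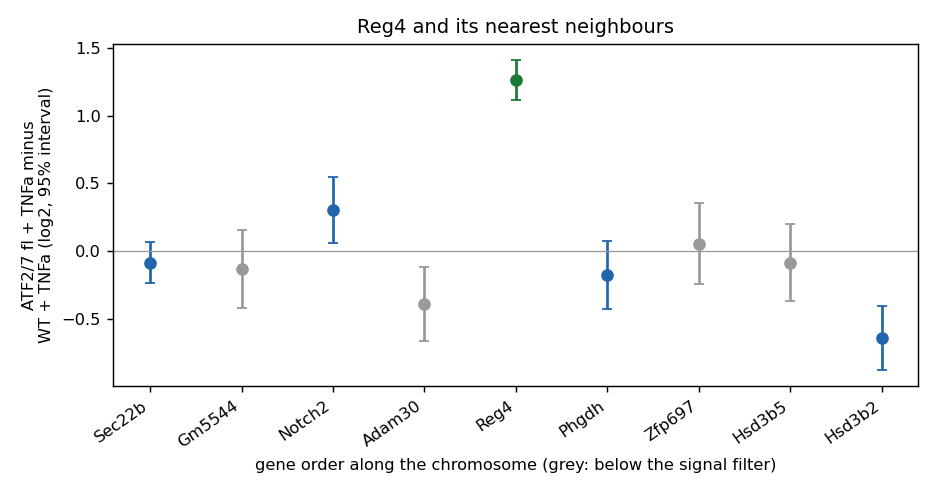
Difference of log2 signal between ATF2/7 fl + TNFa and WT + TNFa (vertical axis, 95% interval) for Reg4 and its 4 nearest named genes on each side, in chromosome order (horizontal axis). Grey points are below the signal filter. Reg4 (1.26) lies above all 8 neighbours, of which Notch2 is the highest (0.30).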

How the data were processed

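RNA from 16 organoid samples was amplified, labelled with biotin and measured on 1 single-colour Affymetrix array each, per the labels' protocols. Per the submitters' processing notes, the authors used Affymetrix Expression Console and RMA, and the deposited values behave as log2 signals. No tool version is stated. Of 19825 probe sets 18851 carried 1 gene symbol, and the remaining 974 were not used. Each gene took its probe set with the highest mean (18850 genes), and 11766 genes above their array's 40th percentile on at least 4 arrays were tested. The group means of all 16 arrays were fitted in limma 3.58.1 (R 4.3.3), with moderated tests and Benjamini-Hochberg adjustment over all genes tested, and adjusted p under 0.05 was called. Genes below the filter were fitted again among all 18850. The number of arrays limits the precision.

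The members and lists were chosen with earlier results of these data known. The lists were written from general knowledge and are given by counts and medians, with up to 4 called genes of smallest p open to naming per list and comparison, and the 5 most correlated genes per member. Samples with the same title number deviated together (r over 0.1) in 5 of 24 pairs, so the number was not taken as a pairing. These pairs lie both within and between genotypes. Within a genotype r ran from −0.30 to 0.01 in WT and from −0.09 to 0.19 in ATF2/7 fl. The block alternative joined each number over all 4 groups, and a block within each genotype was not fitted.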

Additional observations from a re-analysis of the deposited data

Results flagged for a closer look

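The TNFa effect on Reg4 differed between the genotypes by 0.69 log2 (TNFa effect in ATF2/7 fl minus that in WT), which is why Reg4 stands here: the difference itself passed a test (limma interaction, adjusted p = 0.0344). That call was lost in 13 of 24 alternatives. With TNFa the signal was lower in 4 of 4 WT + TNFa arrays than in any WT array, whereas the ATF2/7 fl + TNFa and ATF2/7 fl arrays overlapped. The WT + TNFa and WT groups did not overlap for 14.2% of tested genes. Of the 12 groups of 4 arrays formed by the 3 genes, 0 held an array far enough from the others to be listed.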

How the results depend on the processing

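The other 4 Reg4 comparisons kept their direction and their side of the threshold in 25 of 25 alternatives each. The difference of its TNFa effects kept its direction in all 24 and lost its call in 13, with adjusted p from 3.7e-04 to 0.226: 0.69 log2 with no signal filter, 0.69 with the title number as a replicate block, and 0.64 to 0.73 when each array was left out in turn. The block result rests on numbers that share no stated source. Leaving out the signal filter tests more genes and the left-out arrays leave fewer samples; beyond that the cause was not tested. All 248 alternative values of Reg3b and Reg3g moved by less than the spread between replicates. Many could not move, because a filter, the mean of 1 probe set or a left-out array of another group leaves the difference unchanged. The count therefore says little about stability, and both genes stay limited by a signal below the dim threshold. The number of genes called in all went from 1269 to 720 for TNFa in WT and from 317 to 185 between genotypes with TNFa when only the compared groups were fitted. With array weights it went from 704 to 1095 for TNFa in ATF2/7 fl, from 292 to 443 between genotypes without TNFa and from 317 to 617 with it. Leaving out ATF2/7 fl + TNFa 1 or 4 gave 192 or 198 genes in place of 317. For the difference of the TNFa effects the count lay between 0 and 5 in place of 1. Without WT + TNFa 2, a setting added after the data were seen, 26 of 35 list counts stayed within 1.5 times. Those that did not and are not given above were 1 fall lost between genotypes with TNFa among interleukin 22 and STAT3 responders (0 left), 1 fall lost with TNFa in WT among Paneth markers (0 left) and 1 fall gained between untreated genotypes among the TNF check genes.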
